A study of Mus musculus with 22 samples.

Results

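A set of 9 genes of the NF-κB pathway was followed in intestinal tissue of mice that ate different fibres with or without the pollutant PFOS: the subunit genes Nfkb1, Nfkb2, Rel, Rela and Relb, and the feedback genes Nfkbia, Nfkbie, Tnfaip3 and Birc3. They were taken by symbol from the deposited gene tables, and all 9 of the 46603 genes listed there were found and passed the filter on low counts. The tissue came from male wild-type animals of the inbred C57BL/6 strain, aged 7 weeks when the diets began and fed for 7 weeks, and its total RNA was sequenced. All diets contained 8% fibre (wt/wt), and their energy was 45% carbohydrate, 35% fat and 20% protein. PFOS (perfluorooctanesulfonic acid, a persistent fluorinated surfactant) was supplied to the exposed groups in the water they drank, at a daily dose of 3 µg for each kg they weighed. The 6 groups were Pectin_PFOS (pectin, a fermentable fibre, with PFOS; n = 4), Pectin (pectin alone; n = 4), Inulin_PFOS (inulin, another fermentable fibre, with PFOS; n = 3), Inulin (inulin alone; n = 3), PFOS (cellulose, the control fibre, with PFOS; n = 4) and Control (cellulose alone; n = 4). Exposure was taken from the group names in the sample titles, since the field for treatment names PFOS throughout. The gut segment is not given, and nothing states outright that each replicate is a separate animal, so p-values measure the spread between these samples.

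NF-κB is a family of transcription factors that bind DNA as dimers and switch on genes of inflammation, defence and cell survival. In resting cells inhibitor proteins (IκB) hold the dimers in the cytoplasm. In the canonical branch a kinase complex destroys the inhibitors after signals such as TNF, interleukin-1 or bacterial products, and dimers of RELA with p50, the product of Nfkb1, enter the nucleus. In the noncanonical branch the Nfkb2 product is cut to p52 and pairs with RELB. Several of the genes that NF-κB switches on encode its own brakes, and in the gut the pathway acts in the epithelium as well as in immune cells.

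Library totals lay between 17613297 and 20261357 counts, and mitochondrial genes took 2.85% to 14.9% of them. The TMM scaling factor, which corrects for library composition, ranged from 0.749 to 1.22. Pectin_PFOS replicate 1 stood apart, with the lowest factor and the fewest detected genes (12927). The scaling matters for every level below: when only library totals were used, all tested genes had a median log2 fold change of −0.27 for Pectin_PFOS over Pectin, −0.41 for Pectin_PFOS over PFOS, −0.33 for Inulin_PFOS over PFOS, −0.20 for Inulin over Control and −0.15 for Pectin over Control. Log2 fold changes here are relative to TMM scaling, and levels are given as CPM (counts per 1000000 after TMM scaling) or, between genes, as the deposited TPM (transcripts per 1000000, which accounts for gene length). In bulk tissue, fewer cells of a type and less RNA per cell cannot be told apart.

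Several of these genes are known targets of NF-κB themselves, and 4 promoter windows are printed to show where letters that the factor can bind lie. They run from 250 bases before to 50 bases after the transcription start, as RefSeq gives them on GRCm38.p6. Matches to the κB consensus, the DNA element that NF-κB dimers bind, are in capitals, searched on both strands with overlapping matches merged.
Nfkb2 (chr19:46304487-46304786, plus strand): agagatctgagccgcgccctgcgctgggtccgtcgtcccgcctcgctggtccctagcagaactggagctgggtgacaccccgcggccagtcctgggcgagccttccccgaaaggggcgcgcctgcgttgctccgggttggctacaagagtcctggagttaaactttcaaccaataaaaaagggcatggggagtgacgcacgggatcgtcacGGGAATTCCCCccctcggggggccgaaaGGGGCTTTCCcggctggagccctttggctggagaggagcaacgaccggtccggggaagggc
Nfkbia (chr12:55492598-55492897, minus strand): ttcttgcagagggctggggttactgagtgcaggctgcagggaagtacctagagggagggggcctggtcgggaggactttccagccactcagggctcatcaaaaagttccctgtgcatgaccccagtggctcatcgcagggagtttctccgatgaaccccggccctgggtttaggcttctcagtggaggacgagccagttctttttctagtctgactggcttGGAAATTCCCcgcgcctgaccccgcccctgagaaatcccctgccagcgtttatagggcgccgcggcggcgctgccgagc
Tnfaip3 (chr10:19015361-19015660, minus strand): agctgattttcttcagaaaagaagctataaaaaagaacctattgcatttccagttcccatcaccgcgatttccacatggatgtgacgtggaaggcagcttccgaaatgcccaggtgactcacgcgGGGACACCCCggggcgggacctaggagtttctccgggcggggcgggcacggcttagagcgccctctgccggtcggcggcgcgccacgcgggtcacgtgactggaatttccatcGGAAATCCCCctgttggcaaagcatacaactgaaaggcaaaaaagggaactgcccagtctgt
Birc3 (chr9:7873121-7873420, minus strand): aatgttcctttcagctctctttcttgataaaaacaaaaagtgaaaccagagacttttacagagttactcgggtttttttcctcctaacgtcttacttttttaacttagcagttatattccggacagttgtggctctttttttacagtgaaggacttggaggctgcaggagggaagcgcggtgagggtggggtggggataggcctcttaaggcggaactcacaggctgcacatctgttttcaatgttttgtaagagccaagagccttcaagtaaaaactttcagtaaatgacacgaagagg
Nfkb2 had matches at −39 to −29 and −11 to −2 relative to the start of the window shown. Nfkbia had a match at −29 to −20, and Tnfaip3 had them at −125 to −116 and −12 to −3. Nfkb2 has 2 further RefSeq windows, both with a match, and Tnfaip3 has 1 more, with none. The Birc3 window is shown because the gene was among those called below and no match to these letters lay in it. Of the 7 members with a window, 5 held a match (Nfkb2, Rel, Nfkbia, Nfkbie and Tnfaip3), and Rela and Birc3 did not. Among all 27025 genes with a window, 9.55% held a match, and among all 32851 windows 8.46%. A match describes letters only and shows no binding.

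Levels per length separated the members into tiers. Relb, the partner of p52, averaged 148 ± 48.4 TPM and Nfkbia, which encodes the inhibitor IκBα, averaged 129 ± 43.3 TPM (SD, n = 22 libraries). Relb was above Nfkbia in 13 of 22 libraries, so their order was not fixed. Nfkb1 averaged 30.9 ± 7.77 TPM and Birc3, a ubiquitin ligase that limits cell death and noncanonical signalling, 30.9 ± 8.94 TPM. Nfkb2 followed at 25.5 ± 8.16 TPM and Rela, the main activating subunit, at 20.4 ± 4.03 TPM. Tnfaip3, which encodes the deubiquitinating brake A20, averaged 13.7 ± 3.72 TPM. The lowest levels were those of Nfkbie, which encodes the inhibitor IκBε, at 3.40 ± 1.42 TPM, and of Rel, a subunit best known from lymphocytes, at 1.95 ± 0.633 TPM. Rela varied least over the libraries, with a coefficient of variation of 15.4% of its CPM, and Nfkbie most, with 42.4%. Nfkbie also rested on the fewest reads, 60 to 281 counts per library, against 1803 to 5172 for Relb.

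**Figure D1:**
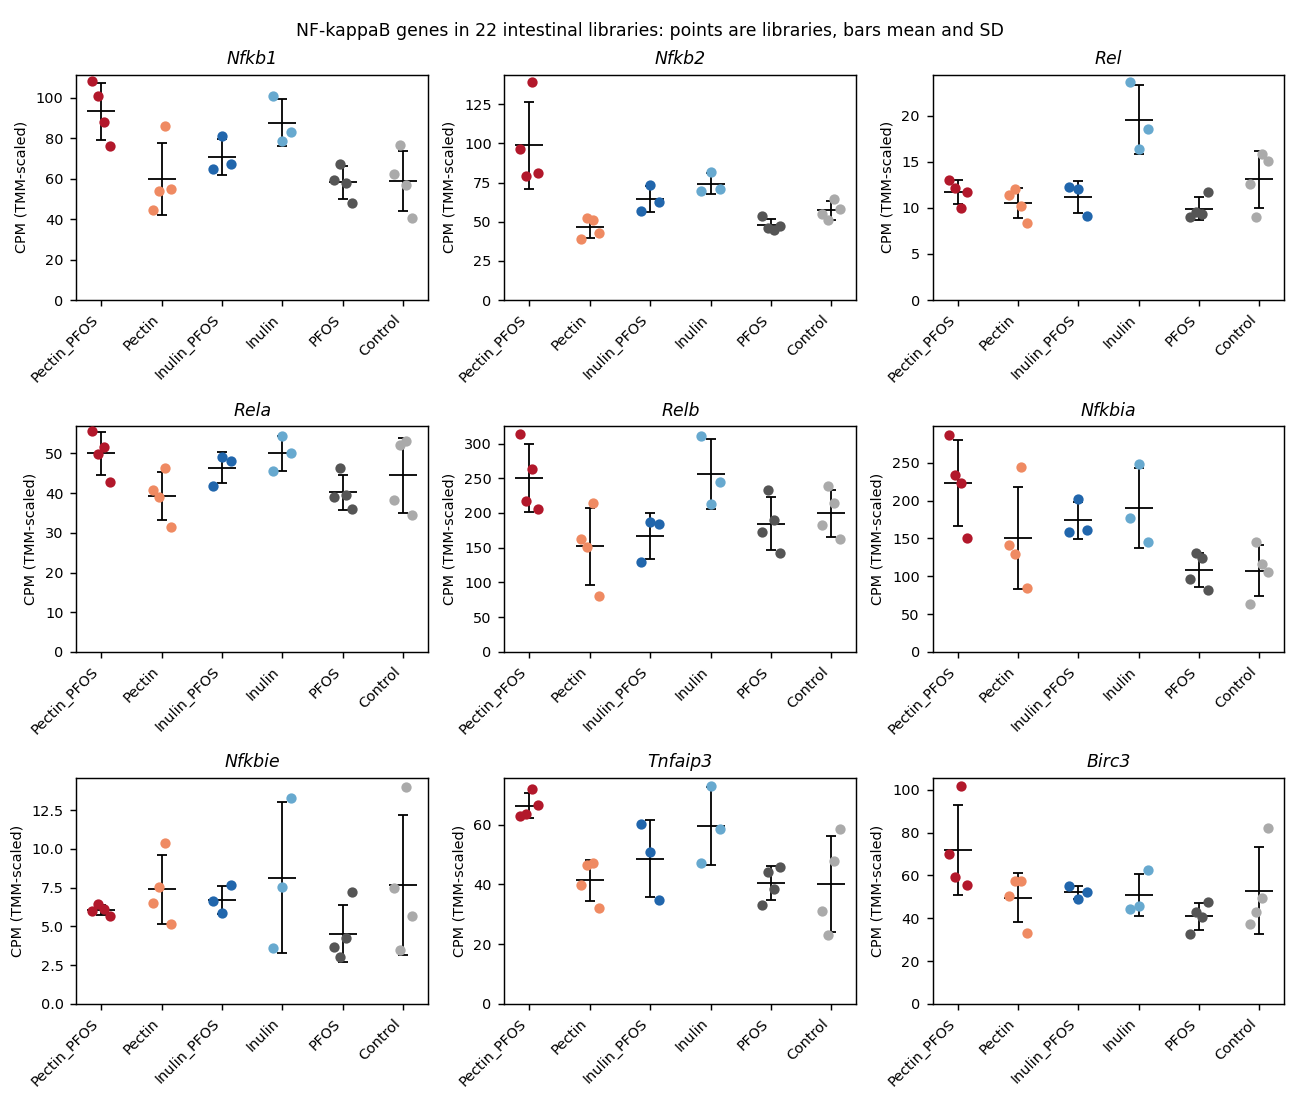
Level of each of the 9 genes in CPM after TMM scaling (vertical axes, starting at 0) in the 6 groups (horizontal axes); points are libraries, and the bars give the group mean and SD. Nfkb2, Tnfaip3, Nfkbia, Nfkb1 and Birc3 had their highest group mean in Pectin_PFOS, and Rel had its highest in Inulin (19.6 CPM).

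Ordered by mean CPM, neighbouring groups overlapped in their libraries for 8 of the 9 genes. The exception was Rel, for which the Inulin libraries (16.4 to 23.7 CPM) lay above the next group, Control (8.98 to 15.8 CPM). Relb had nearly equal means in Inulin (256 CPM) and in Pectin_PFOS (250 CPM), as did Rela, and Nfkbie had its highest mean in Inulin (8.13 CPM), with Control next (7.67 CPM).

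The genes were located, in the coordinates of the deposited tables (GRCm38), as follows. Nfkb1 lies at chr3:135584655-135691547 on the minus strand, Nfkb2 at chr19:46304737-46312090 on the plus strand, Rel at chr11:23736847-23770970 on the minus strand, Rela at chr19:5637483-5648130 on the plus strand and Relb at chr7:19606217-19629438 on the minus strand. Nfkbia lies at chr12:55489411-55492647 on the minus strand, Nfkbie at chr17:45555716-45563169 on the plus strand, Tnfaip3 at chr10:19000910-19015657 on the minus strand and Birc3 at chr9:7848699-7873186 on the minus strand. Nfkb2 overlaps Psd on the opposite strand and a long noncoding RNA gene, and Nfkb1 overlaps the predicted gene Gm43430. The libraries were strand-specific, but whether the counting used strand is not stated, so part of the reads of Nfkb2 and Nfkb1 could belong to these neighbours.

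When mice on pectin received PFOS, 4 of the 9 genes were higher and none was lower (Pectin_PFOS against Pectin, edgeR quasi-likelihood test, adjusted p under 0.05). These were the subunits Nfkb1, Nfkb2 and Relb and the feedback gene Tnfaip3. Over all 15763 genes tested, 11.4% were called higher in that comparison. The median log2 fold change was 0.57 over the members and −0.06 over all genes tested, and 8 of 9 members had a positive one.

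Nfkb2 had the largest difference of the 9. It had 96.6, 78.9, 139 and 81.0 CPM in the Pectin_PFOS libraries, against 39.0, 52.7, 50.9 and 42.7 CPM in the Pectin libraries. Every Pectin_PFOS library lay above every Pectin library, and replicate 3 was the highest of all 22. The log2 fold change was 1.09 ± 0.17 (± standard error; 2.13-fold, edgeR adjusted p = 0.00216). This call was kept under each of 8 other settings and without each of the 22 libraries (log2 fold change 0.88 to 1.19).

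Tnfaip3 had 63.0, 63.7, 72.0 and 66.7 CPM in Pectin_PFOS, against 39.7, 46.5, 47.0 and 32.2 CPM in Pectin. The groups did not overlap, and the Pectin_PFOS libraries lay close together (66.4 ± 4.11 CPM, SD, n = 4). Its log2 fold change was 0.68 ± 0.23 (edgeR adjusted p = 0.0438). In CPM, Nfkb2 and Tnfaip3 made 2 of 9 members whose groups did not overlap and were higher in Pectin_PFOS, against 12% of all tested genes. In the deposited TPM these were 6 of 9, with Nfkb1, Relb, Rela and Birc3 added, against 11.7% of all tested genes.

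Nfkb1 had 108, 101, 87.8 and 76.1 CPM in Pectin_PFOS, against 44.7, 54.0, 85.8 and 55.0 CPM in Pectin. Pectin replicate 3 reached into the Pectin_PFOS range in CPM, while in TPM the groups stood apart (35.8 to 37.4 TPM in Pectin_PFOS, against 16.2 to 31.8 TPM in Pectin). The log2 fold change was 0.64 ± 0.20 (edgeR adjusted p = 0.0322). Relb had 313, 217, 263 and 206 CPM in Pectin_PFOS, against 163, 151, 215 and 79.8 CPM in Pectin. Here too Pectin replicate 3 overlapped the Pectin_PFOS libraries in CPM, though not in TPM (160 to 196 TPM in Pectin_PFOS, against 57.3 to 153 TPM in Pectin), and Pectin replicate 4 was the lowest of all. The log2 fold change was 0.71 ± 0.24 (edgeR adjusted p = 0.0438).

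The calls of Nfkb1, Relb and Tnfaip3 depended on single libraries. Nfkb1 lost its call without Pectin replicate 1, 2 or 4 or Pectin_PFOS replicate 1 or 2 (log2 fold change 0.52 to 0.60, adjusted p = 0.0642 to 0.105). Relb lost it without any of 10 libraries, with its lowest value (0.50) without Pectin replicate 4 and its highest adjusted p (0.138) without Pectin_PFOS replicate 1. The others were Pectin replicates 1 and 2, Pectin_PFOS replicate 3, Control replicate 1, PFOS replicates 1 and 3 and Inulin_PFOS replicates 2 and 3, with values of 0.69 to 0.75. Tnfaip3 lost its call without Pectin replicate 1, 2 or 4, any single Pectin_PFOS library, PFOS replicate 3 or Inulin_PFOS replicate 2, at log2 fold changes of 0.58 to 0.74. With library totals alone, 1 of 9 was called (Nfkb2), and the values of Nfkb1, Relb and Tnfaip3 were 0.42, 0.54 and 0.50; 3.65% of all genes were then called higher. Of all calls in this comparison 54.6% were higher under TMM scaling and 19.4% under library totals.

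The other 5 members did not pass. Birc3 had 70.0, 59.5, 102 and 55.5 CPM in Pectin_PFOS, against 50.2, 57.5, 57.2 and 33.1 CPM in Pectin (0.53 ± 0.24, adjusted p = 0.107). On the deposited TPM the same gene had 35.3, 38.7, 62.2 and 40.2 TPM in Pectin_PFOS, against 19.6, 29.1, 31.7 and 18.1 TPM in Pectin, without overlap, and limma on log2(TPM + 1) called it (0.82, adjusted p = 0.0164). Nfkbia had 287, 234, 223 and 150 CPM in Pectin_PFOS, against 142, 129, 245 and 85.1 CPM in Pectin (0.57 ± 0.29, adjusted p = 0.157). Pectin replicate 3 decided that value: without it Nfkbia passed, at 0.91 and an adjusted p of 0.0285. Rela (0.34 ± 0.15, adjusted p = 0.109), Rel (0.15 ± 0.19) and Nfkbie (−0.29 ± 0.38) overlapped between the groups in CPM (Rela not in TPM), and Rel was at −0.04 with library totals alone.

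Set against PFOS on cellulose, Pectin_PFOS had 5 of 9 members higher and none lower: the subunits Nfkb1 and Nfkb2 and the feedback genes Nfkbia, Tnfaip3 and Birc3. Of all genes tested, 7.7% were called higher. This comparison and the one against Pectin share the Pectin_PFOS libraries, so a library that is high in this group raises both. In CPM the same 5 genes, and no other member, were without overlap between the groups, and all were higher in Pectin_PFOS; over all tested genes this share was 12%. In TPM only Nfkb1 (35.8 to 37.4 TPM in Pectin_PFOS, against at most 35.4 TPM in PFOS) and Birc3 were, 2 of 9 members against 1.89% of all tested genes, and Nfkb2, Nfkbia and Tnfaip3 overlapped. The median log2 fold change was 0.68 over the members and −0.03 over all genes.

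Nfkb2 had 53.4, 46.2, 44.5 and 47.1 CPM in the PFOS libraries, below all 4 Pectin_PFOS values given above (1.05 ± 0.17, edgeR adjusted p = 0.0012). Nfkbia had 96.2, 131, 124 and 82.5 CPM in PFOS and lay entirely under its Pectin_PFOS range of 150 to 287 CPM (1.04 ± 0.29, 2.06-fold, adjusted p = 0.0214). Both genes overlapped in TPM, where Nfkb2 had 29.3 to 50.6 TPM in Pectin_PFOS, against 20.8 to 30.4 TPM in PFOS, and Nfkbia 133 to 198 TPM in Pectin_PFOS, against 76.3 to 136 TPM in PFOS. Birc3 averaged 71.7 ± 20.9 CPM in Pectin_PFOS and 40.8 ± 6.30 CPM in PFOS (SD, n = 4 each; 0.81 ± 0.24, adjusted p = 0.0264). Tnfaip3 averaged 66.4 ± 4.11 CPM in Pectin_PFOS and 40.3 ± 5.72 CPM in PFOS (0.72 ± 0.23, adjusted p = 0.0416). Nfkb1 averaged 93.1 ± 14.1 CPM in Pectin_PFOS and 58.1 ± 8.01 CPM in PFOS (0.68 ± 0.20, adjusted p = 0.0277). All 9 values were positive, but those of Rela (0.32 ± 0.15) and Rel (0.24 ± 0.19) did not pass and turned negative with library totals (−0.08 and −0.14) and on log2(TPM + 1) (−0.11 and −0.13). Relb (0.43 ± 0.24) and Nfkbie (0.42 ± 0.38) did not pass either.

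The scaling weighed more on this comparison than on the other. Library totals alone left 1 call (Nfkb2), and limma on log2(TPM + 1) left 2 (Nfkb2 and Birc3). Nfkb1 was at 0.28 with library totals and 0.22 on log2(TPM + 1), Nfkbia at 0.63 and 0.61, and Tnfaip3 at 0.35 and 0.37. Among all called genes 48% were higher under TMM scaling, 7.81% with library totals and 6.05% on log2(TPM + 1). Leaving out PFOS replicate 1 or Pectin_PFOS replicate 1 left Nfkb2 as the only call. Nfkb1 lost its call also without PFOS replicate 3 or 4 or Pectin_PFOS replicate 2 (0.60 to 0.71 over its 5 such values), and Nfkbia also without PFOS replicate 4 (0.90 to 1.01 over 3). Birc3 lost it also without PFOS replicate 3 or Pectin_PFOS replicate 3 (0.59 to 0.83 over 4). Tnfaip3 lost it without any of 8 libraries, PFOS replicates 1, 2 and 3, Inulin_PFOS replicate 2 and each Pectin_PFOS library (0.65 to 0.79).

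Some markers of other cell types and measures of the libraries differed in the Pectin_PFOS group, and their part in these results was not tested. Of all tested genes, 11.4% were called higher and 9.43% lower over Pectin, and 7.7% higher and 8.33% lower over PFOS. A single gene called in a list of 6 is little apart from these shares. The summed level of 6 fibroblast genes was 49.8 to 82.6 TPM in Pectin_PFOS, against 162 to 228 TPM in Pectin and 212 to 302 TPM in PFOS, and 4 of 6 were called lower in each comparison. Without Pectin_PFOS replicate 1 these counts were 2 over Pectin and 1 over PFOS, and 0 general epithelial genes were called in either comparison. The 6 general epithelial genes summed to 8630 to 10300 TPM in Pectin_PFOS, against 6860 to 8860 TPM in Pectin and 7750 to 9570 TPM in PFOS, with 1 of 6 called higher in each. The 8 enterocyte genes summed to 38300 to 61500 TPM in Pectin_PFOS, against 9600 to 64000 TPM in Pectin and 36800 to 81400 TPM in PFOS; 3 were called higher over Pectin, where 4 had a positive fold change, and 2 over PFOS, where 6 had. B cell genes summed to 8.33 to 32.4 TPM in Pectin_PFOS, against 18.9 to 99.9 TPM in Pectin and 2.46 to 103 TPM in PFOS, and 0 of the 10 passed; 3 of them were at 0 in at least 1 Control library. Plasma cell genes had 1 of 6 lower over Pectin and 2 of 6 higher over PFOS, and endothelial genes 2 of 4 lower over PFOS; without Pectin_PFOS replicate 1, 0 plasma cell genes were called over Pectin and 0 endothelial genes over PFOS, and 2 and 1 enterocyte genes over Pectin and over PFOS. Smooth muscle genes summed to 294 to 862 TPM in Pectin_PFOS, against 712 to 1840 TPM in Pectin and 1030 to 1760 TPM in PFOS. Of these 5 genes 0 had a positive fold change in either comparison, and 0 passed. Myeloid genes had 0 of 9 positive over Pectin and 8 over PFOS, and T cell genes 5 of 8 and 8, and 0 of either list passed. Neutrophil genes summed to at most 5.89 TPM in any library, and the median over libraries of Cxcr2 and of Ly6g was 0. The mitochondrial share was 2.85% to 3.51% in Pectin_PFOS, lower than in any other library.

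**Figure D2:**
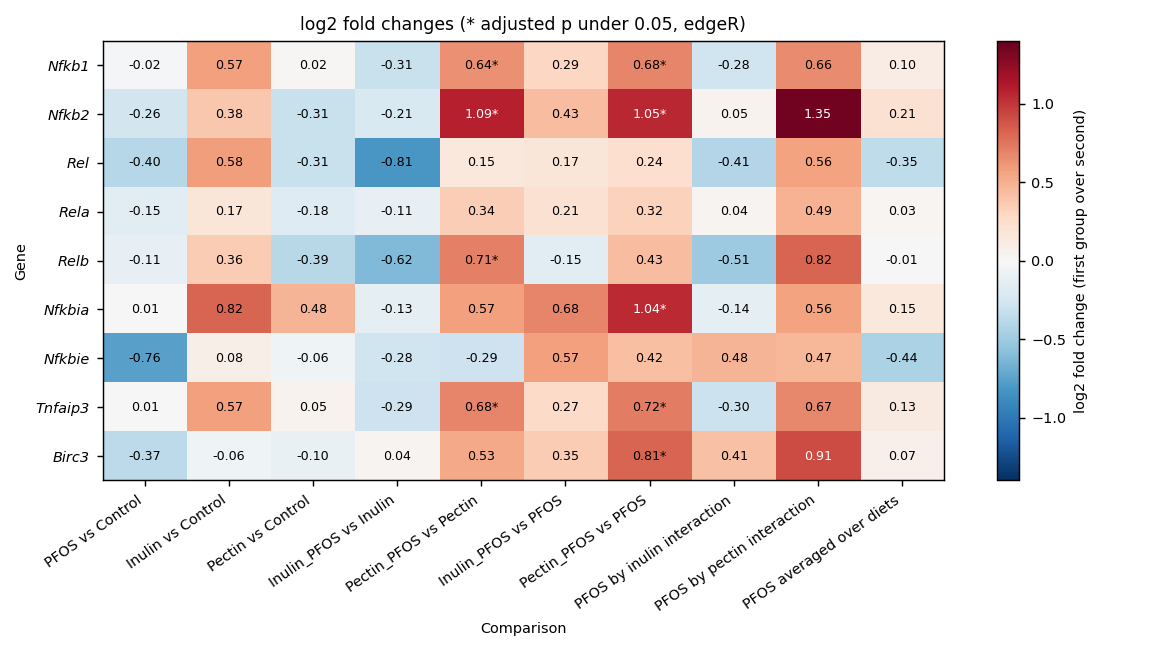
Log2 fold changes (colour and printed value) of the 9 genes (rows) in the 10 comparisons (columns), as first group over second; the interactions are differences of 2 such fold changes, and an asterisk marks an edgeR adjusted p under 0.05. All asterisks lie in the 2 Pectin_PFOS columns, and the largest value is that of Nfkb2 for the interaction of PFOS with pectin (1.35).

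Whether PFOS moved these genes more on pectin than on cellulose was tested as an interaction, and 0 of 9 members passed, as did 0% of all genes tested. Nfkb2 came nearest: its PFOS effect was 1.09 on pectin and −0.26 on cellulose, a difference of 1.35 ± 0.23 on the log2 scale (unadjusted p = 1.01e-05, edgeR adjusted p = 0.159). Without Pectin_PFOS replicate 2 the adjusted p was 0.0422 (1.45), and DESeq2 called it with all libraries (1.36, adjusted p = 0.000153). All 9 interaction values were positive, with a median of 0.66 against 0.01 over all genes, and 6 members had an unadjusted p under 0.05. Birc3 (0.91 ± 0.34) and Relb (0.82 ± 0.34) followed Nfkb2 in size, with adjusted p of 0.316 and 0.356. edgeR put 1953 of all genes at an unadjusted p under 0.05, and DESeq2 called 119.

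On inulin without PFOS, the subunit Rel had its highest levels in CPM, but no member passed the test. In Inulin against Control 0 of 9 members passed, as did 0% of all genes, although 5 members and 3257 of all genes had an unadjusted p under 0.05 (DESeq2 called 0 members and 783 genes). Rel had 23.7, 16.4 and 18.6 CPM in Inulin, against 12.6, 8.98, 15.8 and 15.1 CPM in Control. The 3 Inulin libraries were the highest of all 22 for this gene in CPM (0.58 ± 0.20, edgeR adjusted p = 0.125). In TPM the lowest Inulin library (2.63 TPM) lay level with the highest Control library (2.64 TPM).

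Nfkb1 had 101, 78.7 and 83.2 CPM in Inulin, against 62.1, 76.6, 56.6 and 40.7 CPM in Control (0.57 ± 0.22, adjusted p = 0.154). Nfkb2 averaged 74.3 ± 6.59 CPM in Inulin (SD, n = 3) and 57.2 ± 5.82 CPM in Control (SD, n = 4; 0.38 ± 0.18, adjusted p = 0.234). In CPM, Rel, Nfkb1 and Nfkb2 were the 3 of 9 members whose groups did not overlap and were higher in Inulin, against 3.7% of all tested genes. In TPM all 3 overlapped, and Tnfaip3 alone, 1 of 9, was higher without overlap (14.1 to 20.7 TPM in Inulin, against 6.93 to 13.9 TPM in Control), against 0.596% of all tested genes. Nfkbia averaged 190 ± 53.1 CPM in Inulin and 108 ± 33.9 CPM in Control (0.82 ± 0.31, adjusted p = 0.153). The members' median was 0.38, against −0.02 over all genes, with 8 of 9 values positive; those of Rela and Nfkbie turned negative with library totals alone. Fibroblast markers summed to 104 to 150 TPM in Inulin, against 164 to 484 TPM in Control, with 0 of 6 positive fold changes (median −1.36). Smooth muscle (0 of 5 positive) and endothelial markers (0 of 4) were on the same side, and general epithelial markers had 6 of 6 positive (7510 to 9260 TPM in Inulin, against 4800 to 9350 TPM in Control). No marker of these lists passed in that comparison, and their part in the members' values was not tested.

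PFOS on the inulin diet gave 8 of 9 negative values and no call (Inulin_PFOS against Inulin; 0.159% of all genes were called). Rel was lowest, with 12.3, 12.0 and 9.16 CPM in Inulin_PFOS, all under the 3 Inulin values (−0.81 ± 0.21, edgeR adjusted p = 0.0964). DESeq2 called Rel (−0.83, adjusted p = 0.0166). Relb had 129, 187 and 184 CPM in Inulin_PFOS, against 311, 213 and 244 CPM in Inulin, also without overlap (−0.62 ± 0.28, adjusted p = 0.242). These 2 of 9 members stood lower without overlap in CPM, against 12.1% of all tested genes. In TPM 4 of 9 did, with Rela (15.7 to 20.6 TPM in Inulin_PFOS, against 20.7 to 25.6 TPM in Inulin) and Birc3 (23.3 to 24.6 TPM, against 30.8 to 32.8 TPM) added. For Rela the highest Inulin_PFOS library (20.65 TPM) lay barely under the lowest Inulin library (20.67 TPM). The share of all tested genes was not counted in TPM here, so these 4 cannot be set against it, and the 12.1% holds for CPM only. The interaction of PFOS with inulin called 0 of 9 members and 0% of all genes; 0 members and 3099 genes had an unadjusted p under 0.05, and DESeq2 called 0 members and 659 genes. Rel had an interaction value of −0.41 ± 0.28 (adjusted p = 0.437).

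Inulin_PFOS against PFOS called 0 of 9 members, where 2.64% of all genes passed. Nfkb2 (0.43 ± 0.18, adjusted p = 0.175) and Nfkbia (0.68 ± 0.31, adjusted p = 0.216) had an unadjusted p under 0.05. Both, and Birc3 (0.35 ± 0.25, adjusted p = 0.462), were higher in Inulin_PFOS without overlap in CPM, 3 of 9 members against 12.4% of all tested genes. In TPM Nfkb2 and Nfkbia overlapped, and 2 of 9 members were lower in Inulin_PFOS without overlap. These were Birc3 (23.3 to 24.6 TPM in Inulin_PFOS, against 26.6 to 30.3 TPM in PFOS) and Rel (1.22 to 1.72 TPM, against 1.81 to 2.04 TPM). The share of all tested genes without overlap was not counted in TPM here, so these 2 cannot be set against it. On log2(TPM + 1) limma called 2957 of all genes lower in Inulin_PFOS and 144 higher. In CPM Nfkb2 had 57.1, 73.3 and 62.5 CPM in Inulin_PFOS, and Nfkbia 159, 202 and 161 CPM. On log2(TPM + 1) 6 of the 8 positive values of this comparison turned negative, Nfkb2 among them (−0.11). Of all calls 69.7% were higher under TMM scaling, 14.1% with library totals and 4.64% on log2(TPM + 1).

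On cellulose no difference with PFOS passed the test. In PFOS against Control 0 of 9 members passed, as did 0% of all genes; 1 member and 842 genes had an unadjusted p under 0.05, and DESeq2 called 0 members and 1 gene. Nfkbia averaged 108 ± 22.8 CPM in PFOS and 108 ± 33.9 CPM in Control (SD, n = 4 each). Nfkbie had the largest difference, with 3.65, 3.04, 4.24 and 7.19 CPM in PFOS, against 7.49, 3.45, 14.0 and 5.70 CPM in Control (−0.76 ± 0.38, edgeR adjusted p = 0.822). Control alone covered the whole PFOS range except its lowest library. Rel was at −0.40 ± 0.19 (adjusted p = 0.822).

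Pectin without PFOS gave no call either: 0 of 9 members passed in Pectin against Control, where 1.99% of all genes did. Values ran from −0.39 ± 0.24 for Relb to 0.48 ± 0.29 for Nfkbia, and 0 members had an unadjusted p under 0.05; DESeq2 called 0 members as well. Of all calls 51.8% were higher, against 40.5% with library totals and 29.5% on log2(TPM + 1). The PFOS effect averaged over 3 diets called 0 of 9, against 0.159% of all genes (68% of them higher, 46.7% with library totals). Rel was nearest at −0.35 ± 0.11 (adjusted p = 0.185), and the other members lay between −0.44 (Nfkbie) and 0.21 (Nfkb2).

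The rest of the pathway was counted from lists of ligands, receptors, adaptors and kinases, other inhibitors and target genes. These lists were chosen with earlier results of these data known, so counts above the shares of all genes give no independent support. Against Pectin, adaptors and kinases had 6 of 26 higher and 1 lower in Pectin_PFOS (median 0.34), where 11.4% of all tested genes were higher and 9.43% lower. Rnf31, the catalytic part of the linear ubiquitin assembly complex that activates the kinase complex, averaged 55.9 ± 8.46 CPM in Pectin_PFOS and 26.7 ± 2.88 CPM in Pectin (1.07 ± 0.17, edgeR adjusted p = 0.00216). Traf3, which holds noncanonical signalling in check, was at 0.82 ± 0.15 (adjusted p = 0.0033). Sharpin, a partner of Rnf31 (0.70 ± 0.16), and Irak2, a kinase of interleukin-1 and Toll-like receptor signalling (0.86 ± 0.26), were higher as well.

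Other inhibitors had 5 of 12 higher and 1 lower over Pectin (median 0.26). Among them were Bcl3, a nuclear IκB protein that binds p50 and p52 (0.99 ± 0.29), and Zc3h12a, an RNase that degrades inflammatory messages (0.95 ± 0.30). N4bp1 (0.71 ± 0.15), a brake on NF-κB signalling, was higher and Commd1 (−0.61 ± 0.19), which promotes removal of RELA, was lower. Of the target genes tested, 2 of 22 were higher and 4 lower, against the same 11.4% and 9.43% of all genes. Nos2, the inducible nitric oxide synthase, averaged 1010 ± 562 CPM in Pectin_PFOS and 214 ± 46.1 CPM in Pectin (2.24 ± 0.54, adjusted p = 0.0102). Ptgs2 (−1.79 ± 0.50), Ccl2 (−2.43 ± 0.69, with group means under 1 CPM) and Cd44 (−1.24 ± 0.36) were lower. Of 10 ligands tested Tnfsf11 (RANKL) was lower, at 0.253 ± 0.116 CPM in Pectin_PFOS and 1.31 ± 0.792 CPM in Pectin (−2.31 ± 0.76). Of 15 receptors Tnfrsf11a was higher (0.72 ± 0.24). These single calls stand against the same 9.43% lower and 11.4% higher of all genes.

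**Figure D3:**
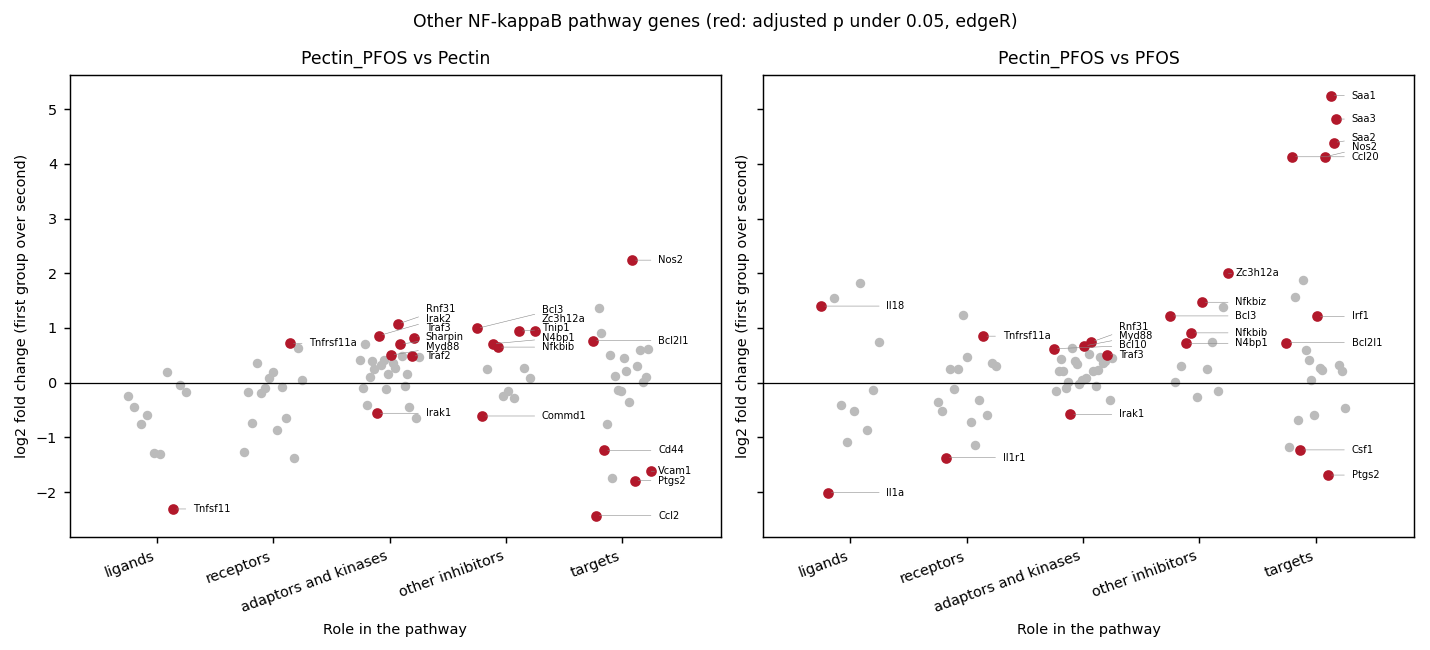
Log2 fold change (vertical axis) of each tested gene of 5 lists by role in the pathway (horizontal axis), for Pectin_PFOS over Pectin (left) and Pectin_PFOS over PFOS (right); red named points had an edgeR adjusted p under 0.05 and grey points did not. Called inhibitors lie above 0 except Commd1 over Pectin, while called targets lie on both sides.

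Against PFOS, inhibitors had 5 of 12 higher and 0 lower in Pectin_PFOS (median 0.74), where 7.7% of all tested genes were higher and 8.33% lower. Zc3h12a averaged 105 ± 24.9 CPM in Pectin_PFOS and 26.4 ± 2.26 CPM in PFOS (2.00 ± 0.31, edgeR adjusted p = 0.000888). Nfkbiz, which encodes the nuclear protein IκBζ, was at 1.47 ± 0.31, N4bp1 at 0.72 ± 0.15 and Bcl3 at 1.22 ± 0.29. Of 22 targets 7 were higher and 2 lower. Nos2 had the smallest p (4.13 ± 0.58), and Irf1, an interferon response factor, was at 1.21 ± 0.30. Saa3 (4.82 ± 0.96) and Saa2 (4.39 ± 1.08), acute-phase genes, belong to a family of similar copies with Saa1, so how reads were divided among them is uncertain. Their levels in PFOS were low, at 0.279 ± 0.131 CPM for Saa3 and 0.218 ± 0.314 CPM for Saa2. In Pectin_PFOS Saa3 was at 8.10 ± 8.83 CPM, an SD above its mean, and Saa2 at 4.76 ± 2.30 CPM. Adaptors and kinases had 4 of 26 higher, with Rnf31 at 0.74 ± 0.16, Myd88 at 0.67 ± 0.16 and Traf3 at 0.51 ± 0.15, and 1 lower (Irak1, −0.58 ± 0.18). Among ligands and receptors Il18, at 32.4 ± 6.63 CPM in Pectin_PFOS and 12.3 ± 6.60 CPM in PFOS, was higher (as was Tnfrsf11a, 0.85 ± 0.24). Il1a (0.183 ± 0.137 CPM in Pectin_PFOS and 0.771 ± 0.467 CPM in PFOS) and Il1r1 were lower.

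Inulin_PFOS against PFOS had calls in the same lists: the inhibitors Nfkbiz (1.79 ± 0.33) and Zc3h12a (1.78 ± 0.32), of 12, and 5 targets of 22, among them Saa3 (6.07 ± 1.01), Nos2 (3.32 ± 0.58), Saa2 (5.18 ± 1.12) and Saa1 (6.19 ± 1.38), with 0 lower in either, where 1.84% of all tested genes were higher. Nfkbiz, Zc3h12a, Nos2 and Saa3 kept these calls in 8 other settings and without each of the 22 libraries, while Saa1 and Saa2 lost theirs without PFOS replicate 1 or 2 or Inulin_PFOS replicate 1 or 3 (5.83 to 7.75 for Saa1 and 4.77 to 6.88 for Saa2 over the 22). It shares the PFOS libraries with the comparison before, so the low PFOS levels of Saa3 and Saa2 given there hold here too. Saa1 was at 47.6 ± 63.4 CPM in PFOS. In Pectin against Control only Il1b of these lists was called, where 1.99% of all tested genes were called. It was at 4.91 ± 1.37 CPM in Pectin and 0.850 ± 0.361 CPM in Control (SD, n = 4 each). The log2 fold change was 2.52 ± 0.57 (edgeR adjusted p = 0.0312). This call held in 5 of 8 other settings. It was lost without Control replicate 1 or 2 or Pectin replicate 2 or 3 (edgeR adjusted p up to 0.0737). Without Pectin_PFOS replicate 1 the counts over Pectin were 3 higher of the adaptors and kinases, 2 of the inhibitors and 1 of the targets, with 0 lower in each. In Pectin_PFOS, Rnf31, Traf3 and Nos2 over Pectin, and Zc3h12a, Nfkbiz, Il1r1, Nos2, Irf1, Saa3 and Saa2 over PFOS, kept their calls in 8 other settings and without each of the 22 libraries; the other genes named in these 2 comparisons lost theirs in at least 1. With library totals alone, 0 inhibitors were higher over Pectin and 3 over PFOS, and 0 adaptors and kinases were higher over PFOS.

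The members were next set against marker scores of 10 cell types (the mean log2 CPM of each list), 90 relations in all over 22 libraries, of which 7 passed a permutation test for both Pearson's r and Spearman's rho after adjustment. The permutations moved libraries freely across the 6 groups, so differences between groups enter these p-values. The r within groups was not tested. Nfkbie followed lymphocyte markers. Its r with B cell markers was 0.79 and rho 0.75 (adjusted permutation p = 0.0009 and 0.0033). Within the groups r was 0.81, and without Control replicate 3 and Inulin replicate 3, the libraries farthest from the median score, it was 0.65. These 2 libraries had the highest B cell scores and the highest Nfkbie, 14.0 and 13.3 CPM, and the summed B cell markers ranged from 3.78 to 461 TPM within Control alone. With T cell markers r was 0.77 and rho 0.73 (adjusted permutation p = 0.00045 and 0.0052), 0.90 within groups and 0.80 without Control replicates 2 and 4.

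**Figure D4:**
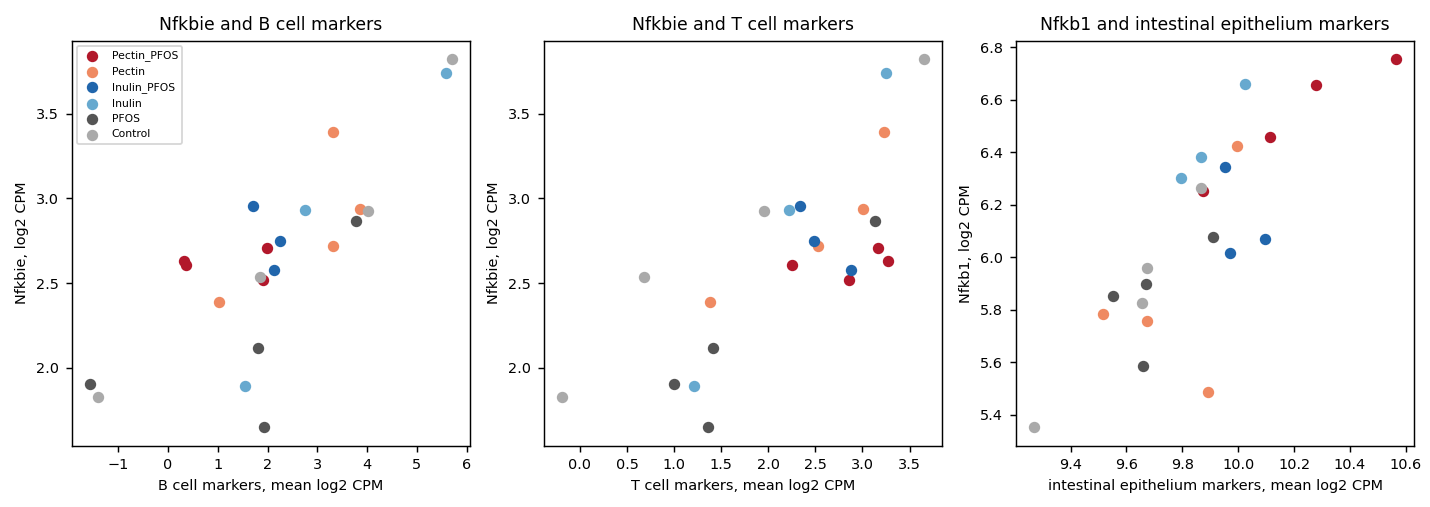
Level of Nfkbie or Nfkb1 (vertical axes, log2 CPM) against the mean log2 CPM of a marker list (horizontal axes) in 22 libraries coloured by group. Nfkbie is highest in the Control and Inulin libraries with the most B cell marker RNA. Nfkb1 is higher in libraries with more general epithelial marker RNA (r 0.79, 0.77 and 0.81 from left to right).

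Nfkb1 and Nfkbia followed the general epithelial markers. For Nfkb1 r was 0.81 and rho 0.79 (adjusted permutation p = 0.00045 and 0.0018), 0.70 within groups and 0.71 without Control replicate 4 and Pectin_PFOS replicate 1. For Nfkbia r was 0.76 and rho 0.81 (adjusted permutation p = 0.0009 and 0.0018), 0.53 within groups and 0.75 without the same libraries. Rela, Relb and Nfkb2 had an r of 0.71, 0.59 and 0.55 with the same markers but passed for r only. On TPM r with them was 0.86 for Nfkb1 and 0.57 for Nfkbia (adjusted permutation p = 0.00045 and 0.047). With the enterocyte markers neither Nfkb1 nor Nfkbia passed (r = 0.40 and 0.49, adjusted permutation p = 0.16 and 0.079). Relb (0.73), Birc3 (0.64) and Rela (0.57) passed with them for r only (adjusted permutation p = 0.0059, 0.013 and 0.032). Without Pectin replicate 4 and Pectin_PFOS replicate 3 these r were 0.47, 0.45 and 0.32. The remaining 3 relations that passed were negative, and none of them passed on TPM. Nfkb1 and Nfkb2 had an r of −0.72 and −0.65 with fibroblast markers, but within groups these were −0.31 and 0.02, so the relation did not hold there. Nfkbia had an r of −0.68 with endothelial markers, −0.47 within groups and −0.36 on TPM.

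**Figure D5:**
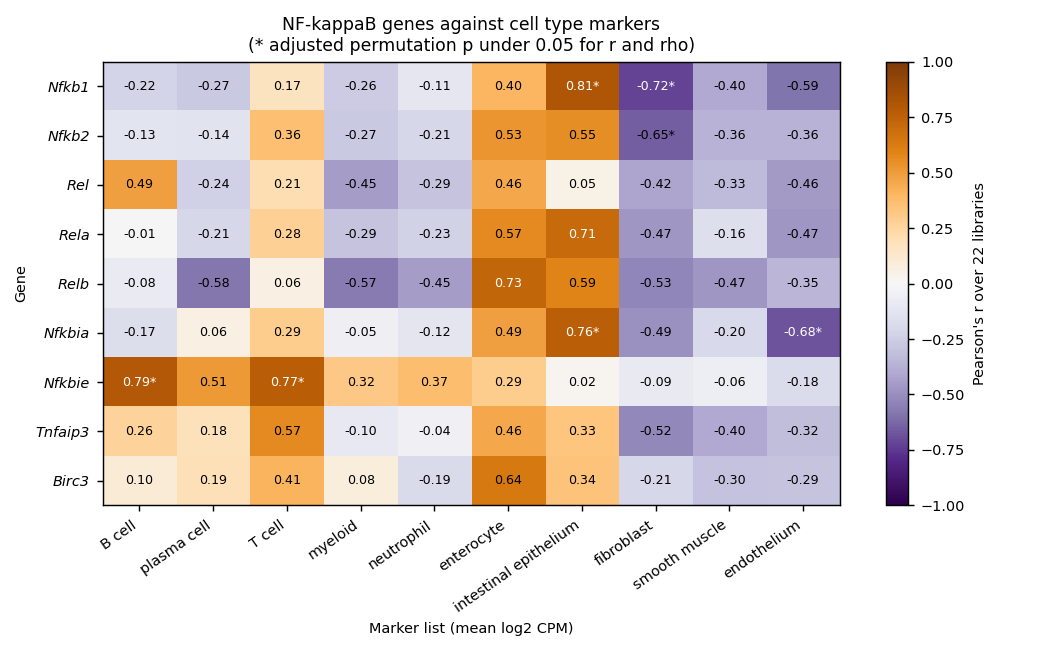
Pearson's r (colour and printed value) over 22 libraries between the log2 CPM of each of the 9 genes (rows) and the mean log2 CPM of 10 marker lists (columns); an asterisk marks an adjusted permutation p under 0.05 for both r and rho. Nfkbie stands apart with B cell (0.79) and T cell (0.77) markers. With general epithelial markers Nfkb1 is highest (0.81), followed by Nfkbia (0.76) and Rela (0.71).

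Among themselves the 9 genes formed 36 pairs with a median r of 0.36 over the 22 libraries and 0.24 within groups. Rela and Relb were closest (r = 0.79, 0.75 within groups), followed by Rela and Nfkbia (0.75) and Nfkb1 and Nfkbia (0.74). Nfkb1 and Nfkb2 had an r of 0.67 but 0.10 within groups. These values are descriptions over libraries that share their scaling.

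Of 14187 candidate genes, those most like a member over the 22 libraries by Pearson's r of log2 CPM were as follows. Nfkb1 was nearest to Jup (0.96), Dhx8 and Hgs, Rela to Pkp3 (0.92), Rhof and Gabpb1, and Relb to Zbtb24 (0.92), Trim25 and Bcar1. Jup encodes plakoglobin, a protein of cell junctions, and Pkp3 encodes plakophilin 3 of desmosomes. Nfkb2 was nearest to Pklr (0.92), Ddx58 and Tapbp, and Nfkbia to Tbc1d20 (0.90), Sco1 and Lrrc1. Nfkbie was nearest to Arhgdib (0.92), Ccr6 (0.91) and Parvg (0.91), of which Ccr6 encodes a chemokine receptor of B and T cells. Tnfaip3 was nearest to Dnah17 (0.83), Gramd2 and D5Ertd579e, and Rel to Psg18 (0.72), Ensa and Kcnj15.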

How the data were processed

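Total RNA of intestinal tissue was column-purified, checked on a Fragment Analyzer and sequenced as strand-specific BGI DNBSEQ libraries, per the labels' protocols. HISAT, Bowtie2 and GRCm39 appear in the submitters' processing notes with no version or role, while the gene coordinates in the tables are those of GRCm38: of 46005 genes shared with GENCODE M21, 38860 (84.5%) had the same start and end, among them 6 of the 9 members. The deposited values were expected counts, estimated by the authors with a tool not given in the sources used here; between 3.8% and 4.8% of the values of a library were not whole. The deposited TPM values were computed by the authors from the same libraries and are scaled for gene length.

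The expected counts were rounded to whole numbers and tested with edgeR 4.0.16 in R 4.3.3: TMM scaling, filterByExpr (15763 of 46603 genes kept) and a robust quasi-likelihood F test on 22 libraries with 1 mean per group. In all 10 comparisons were made, 7 pairs of groups, 2 interactions and the average PFOS effect, each with Benjamini-Hochberg adjustment over all genes tested and a threshold of 0.05. The standard error of a log2 fold change was its size divided by the square root of F. The biological coefficient of variation was 31.9%, and a prior count of 2 was used for log2 CPM. Alternatives were DESeq2 1.42.0 (Wald test and size factors), library totals, no filter, only the compared groups, a replicate block, limma 3.58.1 on log2(TPM + 1) and log2(TPM + 0.1), and leaving out each library. The marker relations used 100000 permutations, and their repeat on TPM, like the overlap of groups in TPM, was chosen after seeing the data. The scripts were tested on simulated counts.

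The 9 members were named in every comparison. Of each pathway list at most 4 passing genes per comparison were named, by smallest p, and for likeness the 3 genes with the highest r, leaving out predicted gene models; the likeness result of Birc3 is not reported here. The members and lists were chosen with earlier results of these data known. Promoter sequences came from RefSeq on GRCm38.p6; of the 9 members 7 were matched by symbol, and Nfkb1 and Relb are named only.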

Additional observations from a re-analysis of the deposited data

How the results depend on the processing

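Over the members' log2 fold changes, other settings gave 624 with the same call and direction, 58 that moved, 22 that no longer passed and 5 that newly passed; leaving out 1 library gave 1858, 76, 44 and 2, and 0 values that had passed changed direction. Of 9 members, 4 were called in Pectin_PFOS against Pectin: 1 with library totals, 2 with no filter, 2 with only the groups compared, 3 with limma on either TPM scale, and 1 to 5 without single libraries (1 without Pectin replicate 1, 2 or 4 or Pectin_PFOS replicate 1; 5 without Pectin replicate 3). For Pectin_PFOS against PFOS, 5 were called: 1 with library totals, 2 with limma on log2(TPM + 1), 1 on log2(TPM + 0.1) and 1 to 5 without single libraries (1 without PFOS replicate 1 or Pectin_PFOS replicate 1). On log2(TPM + 0.1) Nfkb2 narrowly missed the threshold (0.58, adjusted p = 0.0508). DESeq2 called 1 member in Inulin_PFOS against Inulin (Rel) and 1 in the interaction of PFOS with pectin (Nfkb2), which had 0 to 1 without single libraries. The causes were not tested.

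Counts over all genes moved more. DESeq2 called 783 in Inulin against Control (edgeR 0), 659 in the interaction with inulin (0), 119 in that with pectin (0), 1 in PFOS against Control (0), 506 in Inulin_PFOS against Inulin (25), 1101 in Inulin_PFOS against PFOS (416), 856 in Pectin against Control (313) and 206 in the averaged effect (25). Library totals gave 999 in Inulin_PFOS against PFOS, 126 in Pectin against Control, 15 in the averaged effect and 3829 in Pectin_PFOS against PFOS (2526). On log2(TPM + 1) and log2(TPM + 0.1) the counts were 1335 and 1593 for Pectin_PFOS against Pectin (3277), 3917 and 3918 for Pectin_PFOS against PFOS, 3101 and 2744 for Inulin_PFOS against PFOS, 95 and 107 for Pectin against Control and 9 on both scales for the averaged effect; log2(TPM + 1) gave 12 in Inulin_PFOS against Inulin. Only the groups compared gave 0 in Inulin_PFOS against Inulin, 1629 in Inulin_PFOS against PFOS and 48 in Pectin against Control, and no filter gave 167 in the last. Without single libraries the counts ran from 1360 (without Pectin_PFOS replicate 1; 1567 and 1686 without Pectin replicates 1 and 2) to 3846 for Pectin_PFOS against Pectin. For Pectin_PFOS against PFOS they ran from 1265 (without PFOS replicate 3) to 2897, and for Inulin against Control from 0 to 794 (without Control replicate 1), where 0 members were called. They ran from 51 (without Pectin replicate 3) to 530 for Pectin against Control, from 73 (without PFOS replicate 2) to 572 for Inulin_PFOS against PFOS and from 2 (without Inulin replicate 1) to 147 for Inulin_PFOS against Inulin.

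Equal replicate numbers showed no common pairing of the libraries: correlations of their deviations ran from −0.26 to 0.30. These numbers differ from those in some sample titles, and a pairing by the title numbers was not tested. With the replicate number as a block, 5 members were called in each Pectin_PFOS comparison (Rela, 0.35, adjusted p = 0.0462, joined over Pectin) and 14 genes in the averaged effect, which has no fit with only its groups. Depth limits Nfkbie most, with 60 to 281 counts per library.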
